A study of Mus musculus with 10 samples.

Results

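The genes described here are 9 mouse transcription factor genes of the myogenic programme, namely the myogenic regulatory factors Myod1, Myf5, Myog and Myf6, the MEF2 genes Mef2a, Mef2c and Mef2d, the homeobox gene Six4 and the paired-box gene Pax7. The genes were picked with earlier results of these data known, and their probes are all non-control probes whose gene name in the scanner files equals one of these symbols. This gave 13 probes of 60 bases out of 55681, and 9 genes out of 34650 gene names. All 9 symbols are on the array, with 3 probes each for Mef2a and Mef2d and 1 probe each for the others.

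MyoD and Myf5 are basic helix-loop-helix factors that commit cells to the muscle lineage. They bind DNA at E-boxes as dimers with E proteins. Myogenin, the product of Myog, acts downstream of them in terminal differentiation, when myoblasts leave the cell cycle and fuse, and MRF4, the product of Myf6, is best known from late differentiation and adult muscle. MEF2 proteins do not start the programme by themselves but act together with the helix-loop-helix factors on muscle genes. Six4 binds MEF3 sites, among them one in the Myog promoter, and Pax7 marks muscle stem cells and is lost as they differentiate.

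The cells were C2C12, an established mouse myoblast line that forms myotubes when serum is withdrawn. Cells of both groups grew in high-glucose medium with serum and received 150 nM of synthetic RNA with a lipid reagent, and RNA was taken after 72 h. The mimic group received a miR-142-3p mimic, and the scramble group received a scrambled sequence. The labels put the transfection efficiency at about 60% and do not say for which group. They list 6 mimic and 4 scramble samples and call the transfections independent. The remark "re-analysis" stands in the 4 scramble titles but in none of the mimic titles, and the sources used here do not explain it.

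The files of these 10 samples are 10 scans of 5 array positions on 1 slide, each position scanned on 2 days. Mimic replicates 1 and 4, 2 and 5, and 3 and 6 share a position, here called mimic arrays 1, 2 and 3, and scramble replicates 1 and 3, and 2 and 4, are scramble arrays 1 and 2. Both scans of a position were averaged, so n = 3 mimic arrays and n = 2 scramble arrays. Nothing in the headers says which culture an array's RNA came from, so the p-values refer to these 5 arrays. They set a difference against the spread of the arrays, moderated by limma over all tested probes. Part of that spread may be technical. Per scan, 25.4% to 34.6% of non-control spots were well above background. Over 12637 bright probes, the correlation of scramble array 1 with the mimic arrays was 0.951 to 0.957, as close as with scramble array 2 (0.957). That of scramble array 2 with the mimic arrays was 0.913 to 0.928. Differences of the 9 genes that passed the test are therefore also given against each scramble array alone. In a fit with 1 scramble array the spread comes from the mimic arrays only, and the lone array is assumed to vary as they do.

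Signals are log2 processed signals relative to the 75th percentile of the non-control probes of the scan, so 0 is that percentile. A difference is mimic minus scramble on this scale. Apart from the summed signals of cell type markers, levels of different probes are not set against each other, since each probe binds its target with its own strength. The RNA came from whole cultures, so fewer cells with a transcript and less of it per cell cannot be told apart.

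The seed is the part of a microRNA that pairs with targets. The mature mouse miR-142-3p is shown because a mimic of it was given to the mimic group only. It is listed in RefSeq (GRCm38.p6) at chr11:87756903-87756925 on the plus strand, and capitals mark bases 2 to 8, the seed. The sequence of the commercial mimic itself is not given in the labels.
mmu-miR-142a-3p: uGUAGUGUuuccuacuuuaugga
The letters that pair with this seed, ACACTAC in the sense strand, occur in 144 of the 55681 probes (0.259%) and in 0 of the 13 probes of the 9 genes. That says only that these letters are not in these stretches of the transcripts.

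The Myog promoter is shown because it carries binding motifs of 3 of the families described here, the helix-loop-helix factors, MEF2 and Six4. Myog, Myod1 and Six4 were all lower with the mimic, and a link between these falls was not tested. The window holds the 250 bases before the start of Myog in RefSeq (GRCm38.p6), chr1:134289754-134290003 on the plus strand. Capitals mark, from left to right, an E-box, the MEF3 site TCAGGTTTC, the MEF2 site CTATATTTAT, and another E-box next to the start.
Myog: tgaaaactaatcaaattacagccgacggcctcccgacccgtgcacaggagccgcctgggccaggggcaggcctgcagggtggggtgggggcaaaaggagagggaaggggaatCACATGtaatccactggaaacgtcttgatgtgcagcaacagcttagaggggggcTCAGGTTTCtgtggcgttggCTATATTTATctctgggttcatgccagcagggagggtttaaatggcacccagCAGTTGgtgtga
Six4: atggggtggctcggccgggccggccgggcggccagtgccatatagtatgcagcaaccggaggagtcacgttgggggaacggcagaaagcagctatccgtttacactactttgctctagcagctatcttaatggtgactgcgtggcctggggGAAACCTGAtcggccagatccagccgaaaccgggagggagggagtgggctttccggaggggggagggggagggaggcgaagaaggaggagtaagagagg
The Six4 window, chr12:73113246-73113495 on the minus strand of the same build, is shown beside it because it holds the same MEF3 letters, read on the other strand (capitals). The E-boxes of Myog, CACATG and CAGTTG, lie 138 to 133 and 12 to 7 bases before the start, the MEF3 site 84 to 76 and the MEF2 site 64 to 55. The MEF3 letters of Six4 lie 99 to 91 bases before its start.

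Motifs were searched on both strands in windows of 250 bases. The E-box CANNTG is frequent and was in 66.2% of 32851 mouse promoter windows, so its presence in Myog sets this promoter apart from few others. The MEF3 letters TCAGGTTTC were in 0.387% of the windows. The MEF2 box in its strict form was in 2.92% of windows and in none of those of the 9 genes. With its last letter free, which is the form that takes in the Myog site, it was in 7.03%. These motifs do not overlap in Myog. Of the 9 genes, 7 were matched to a promoter, in 10 windows; Myod1 and Myf6 were not. The 3 windows of Mef2c held 2, 0 and 1 E-boxes, and the first of them also a MEF2 box with the last letter free. The other Six4 window and those of Myf5, Mef2a, Mef2d and Pax7 held none of the motifs searched. These matches describe letters and are no measurement of binding in these cells.

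The comparison of the mimic with the scramble addresses how raised miR-142-3p alters transcript levels in myoblasts. Of the 9 genes, Myog, Myod1 and Six4 were lower with the mimic and none was higher at an adjusted p below 0.05 (limma, Benjamini-Hochberg over 17454 probes, each gene read from its brightest probe). At an unadjusted p below 0.05, 4 were lower and 0 higher, the fourth being Myf6, beside 9.64% lower and 14.9% higher of all tested genes. Myf6, Mef2a and Mef2d passed the filter on dim probes but not the test, and Myf5, Mef2c and Pax7 did not pass the filter, which asked for a signal well above background on 4 of the 10 scans. Of all 13676 genes that passed the filter, 3.34% were lower and 4.90% higher by the same rule. The arrays of both groups did not overlap for 4 of the 6 tested genes, against 42.5% of all genes, so non-overlap by itself sets few genes apart with 3 against 2 arrays. The median difference of all tested genes was 0.09, and it lay between −0.04 and 0.17 under the other scalings.

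**Figure D1:**
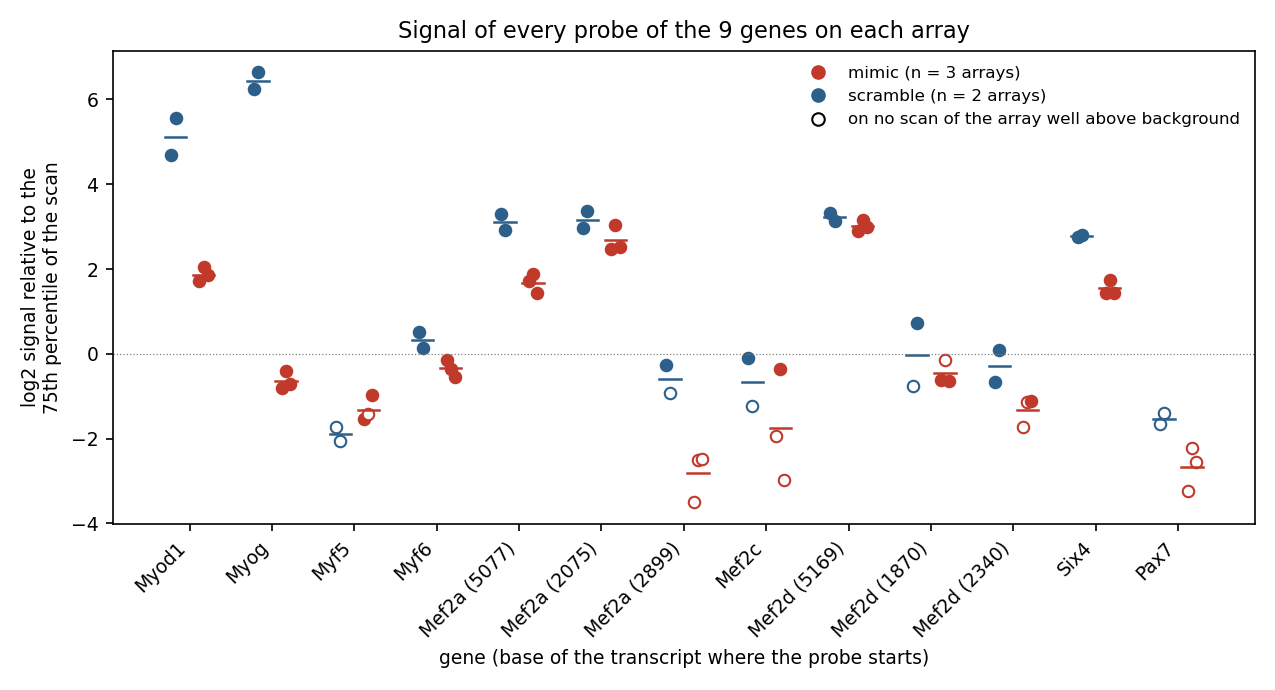
Log2 signal relative to the 75th percentile of the scan (vertical axis) of all 13 probes (horizontal axis; the transcript base where the probe starts is in brackets for Mef2a and Mef2d), with 1 point per array, blue for scramble and red for mimic, and bars at the group means. Open points are arrays on which no scan put the probe well above background. Myog and Myod1 show the widest gaps between the groups, and the points of Myf5, Mef2c and Pax7 lie below 0 on every array.

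Myod1, the lineage-committing factor that C2C12 myoblasts express while they proliferate, was lower with the mimic. Its probe, base 1347 of the transcript, lies at chr7:53633956-53634015 on the plus strand (mm9, as the files give it). The mimic arrays gave a log2 signal of 1.71, 2.04 and 1.85, and the scramble arrays 4.69 and 5.55. Every mimic array lay below both scramble arrays, and the scramble arrays lay further apart than the mimic arrays. The means were 1.87 ± 0.17 (SD, n = 3) and 5.12 ± 0.61 (SD, n = 2). The difference of −3.25 ± 0.28 (SE; 95% limits −3.91 to −2.59), a 9.52-fold fall, passed the test (limma, adjusted p = 0.000634).

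The scramble arrays differed by 0.87 for Myod1, with array 2 higher, which is a wider gap than usual. Over all genes the same gap had a median of −0.15 and a range from −1.03 to 0.75 between its 5th and 95th percentiles. Against scramble array 1 alone the difference was −2.82 and against scramble array 2 alone −3.68. Scans of the first day alone gave −3.15, those of the second −3.35, and a block for the slide row −3.16. The fall passed the test in all 22 alternative settings.

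With the mimic Myod1 was still well above background. The array carries 10 copies of this probe, which gives a second measure of precision. All 60 usable copies on the 6 mimic scans and all 39 on the 4 scramble scans were well above background. The mean processed signal per scan ran from 514 to 726 arbitrary units with the mimic and from 3904 to 7131 with the scramble. The coefficient of variation between copies on a scan was at most 12.7%, so the spread of copies was small against the gap between the groups.

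Myog, whose product drives terminal differentiation and the genes of the contractile apparatus, had the largest difference of the 9 genes. Its probe, base 1228, lies at chr1:136188874-136188933 on the plus strand (mm9). The mimic arrays gave a log2 signal of −0.81, −0.40 and −0.71, and the scramble arrays 6.23 and 6.64. All 3 mimic arrays were below the 75th percentile of their scans and both scramble arrays were far above it. The means were −0.64 ± 0.21 (SD, n = 3) and 6.44 ± 0.29 (SD, n = 2). The difference was −7.08 ± 0.23 (SE; 95% limits −7.61 to −6.55; limma, adjusted p = 3.26e-05), which is 135-fold.

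In processed signal, Myog stood at 97.3, 98.2 and 111 arbitrary units on the mimic arrays and at 11494 and 14519 on the scramble arrays. Single copies of the probe ranged from 59.6 to 166 with the mimic and from 7715 to 15908 with the scramble, so the lowest scramble copy was far above the highest mimic copy. With the mimic 46 of 59 copies were well above background, and 1 scan, that of replicate 2, had too few to count as such, so 5 of 6 mimic scans and 4 of 4 scramble scans put Myog well above background.

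The Myog signal with the mimic lay near background, and the size of the fall depended on how background was taken off. With normexp correction the difference was −5.98 in place of −7.08, and its adjusted p was 1.49e-05 (limma). Against scramble array 1 alone it was −6.87 and against scramble array 2 alone −7.28. Scans of the first day alone gave −7.03, those of the second −7.12, and a block for the slide row −7.02.

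**Figure D2:**
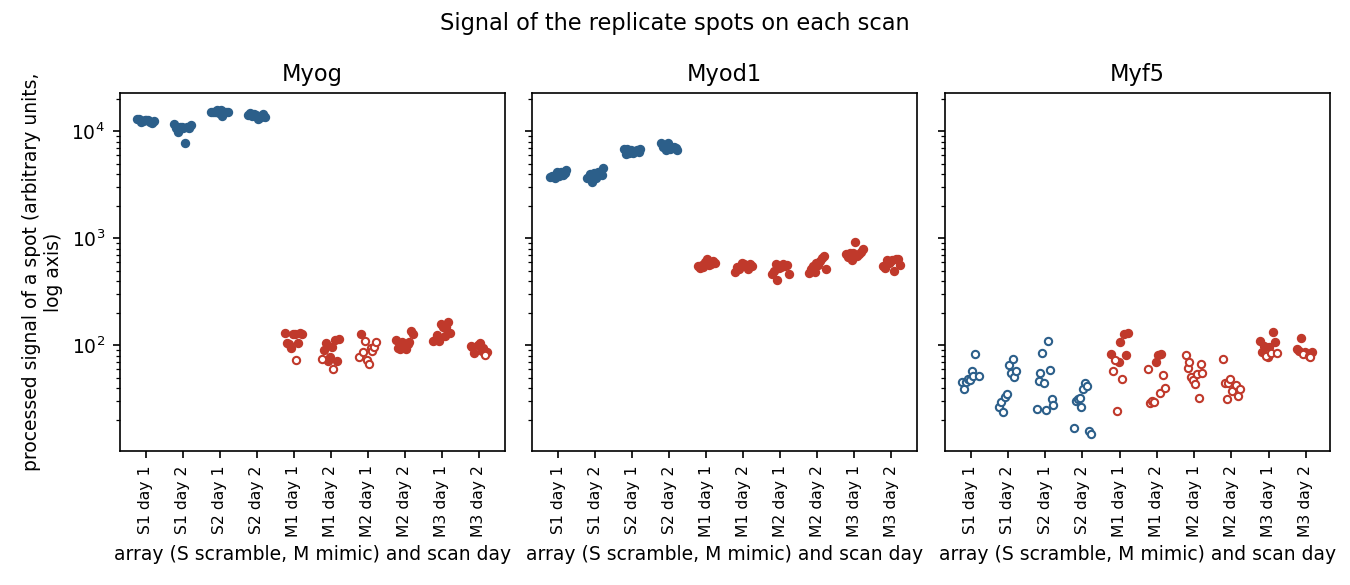
Processed signal of each replicate copy of the Myog, Myod1 and Myf5 probes (vertical axis, arbitrary units, log axis) on each of the 10 scans (horizontal axis; S is scramble, M is mimic, with the array number and scan day); open points are copies not well above background. Myog copies lie between 7715 and 15908 on scramble scans and between 59.6 and 166 on mimic scans, while no Myf5 copy on a scramble scan was well above background.

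Myf5, the other lineage-committing factor, was near background in both groups. Its probe, base 2013, lies at chr10:106919974-106920033 on the minus strand (mm9). Signals were −1.54, −1.43 and −0.98 on the mimic arrays and −1.72 and −2.05 on the scramble arrays. All mimic values lay above both scramble values, but all 5 were well below the 75th percentile. The probe was detected well above background on 3 mimic scans of 6 and on 0 scramble scans of 4, which is 21 of 57 copies against 0 of 39. Copies on a single scan varied with a coefficient of variation of up to 55.0%. No fold is given, since the lower bound on it was below 1, and without the filter the difference of 0.57 did not pass the test (limma, adjusted p = 0.972). A rise or a fall of Myf5 was not detectable at this signal.

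Myf6, which encodes MRF4, was dim in both groups and did not pass the test. Its probe, base 867, lies at chr10:106930237-106930296 on the minus strand (mm9), in the same region of chromosome 10 as that of Myf5, and has 1 copy on the array. On the mimic arrays it gave −0.14, −0.37 and −0.54, and on the scramble arrays 0.52 and 0.14. The groups did not overlap, and the means were −0.35 ± 0.20 (SD, n = 3) and 0.33 ± 0.27 (SD, n = 2). The difference was −0.68 ± 0.22 (SE; 95% limits −1.20 to −0.16; limma, adjusted p = 0.115). The scans of the first day gave −0.41 and those of the second −0.95.

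The 3 probes of Mef2a, which encodes a MEF2 protein found in many tissues and in muscle, did not give the same result. The brightest, base 2075 at chr7:74379575-74379634 on the minus strand (mm9), gave 2.48, 3.03 and 2.51 on the mimic arrays and 2.98 and 3.36 on the scramble arrays. Mimic array 2 lay above scramble array 1, so the groups overlapped, and the difference of −0.49 ± 0.25 (SE; 95% limits −1.07 to 0.09) did not pass the test (limma, adjusted p = 0.268). These limits leave room for a fall of up to 1.07 on the log2 scale and for a rise of 0.09.

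The probe of Mef2a at base 5077, chr7:74376573-74376632, lies nearer the end of the transcript and was lower with the mimic. It gave 1.72, 1.87 and 1.43 on the mimic arrays and 3.30 and 2.93 on the scramble arrays, with no overlap. Its difference was −1.44 ± 0.23 (SE; 95% limits −1.97 to −0.91; limma, adjusted p = 0.00932), a 2.72-fold fall. The value was −1.63 against scramble array 1 alone and −1.26 against scramble array 2 alone. The call was lost without a filter on dim probes (adjusted p = 0.134).

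Within an array, where loading and labelling are shared, the signal of the base 5077 probe minus that of the base 2075 probe was −0.76, −1.16 and −1.08 with the mimic and 0.32 and −0.43 with the scramble. The mimic arrays lay below both scramble arrays, by 0.95 on average, with a gap between the scramble arrays nearly as large. This difference between probes was not tested. The mean of the kept Mef2a probes passed the test at −0.97 (limma, adjusted p = 0.0322), so the call for Mef2a turns on how its probes are combined.

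The third Mef2a probe, base 2899 at chr7:74378751-74378810, did not pass the filter. It gave −3.50, −2.50 and −2.47 on the mimic arrays and −0.26 and −0.92 on the scramble arrays, and was well above background on 0 of 6 mimic and 2 of 4 scramble scans. No bound on a fold is given, since scramble array 2 was not well above background on either scan. The scramble scans well above background were both of scramble array 1.

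Mef2c, another MEF2 gene, was near background and scattered. Its probe, base 1104, maps to chr13:83772788-83775025 on the plus strand (mm9), a span of 2238 bases for a 60-base probe, so it crosses an exon junction. The mimic arrays gave −1.93, −0.36 and −2.98, and the scramble arrays −0.11 and −1.24. The groups overlapped, and mimic array 2 lay closest to scramble array 1. The probe was well above background on 1 of 6 mimic and 2 of 4 scramble scans, and no difference in Mef2c was detectable at this signal (without the filter −1.08; limma, adjusted p = 0.979).

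Mef2d, a widely expressed MEF2 gene, was measured well above background on every scan by its brightest probe and did not pass the test. This probe, base 5169 at chr3:87975777-87975836 on the plus strand (mm9), gave 2.89, 3.16 and 2.99 on the mimic arrays and 3.33 and 3.13 on the scramble arrays. The groups overlapped, and the difference was −0.22 ± 0.20 (SE; 95% limits −0.68 to 0.25; limma, adjusted p = 0.540). For this probe, a fall beyond 0.68 or a rise beyond 0.25 lies outside these limits. The limits of the Mef2d probes at base 2340 and base 1870 reach further down, to −1.74 and −1.41.

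The other Mef2d probes were dimmer and less even. That at base 2340, chr3:87972971-87973030, gave −1.73, −1.13 and −1.11 with the mimic and −0.67 and 0.08 with the scramble, a difference of −1.03 ± 0.30 (SE; limma, adjusted p = 0.0852). Only 2 of 6 mimic scans put it well above background, against 4 of 4 scramble scans. That at base 1870, which crosses an exon junction between chr3:87972214-87972560, gave −0.61, −0.14 and −0.63 with the mimic and −0.76 and 0.72 with the scramble, so the scramble arrays lay on both sides of the mimic arrays. Its difference of −0.44 ± 0.42 (SE; limma, adjusted p = 0.553) was 0.30 without scramble array 2 and −1.18 without scramble array 1 (limma, adjusted p = 0.0265), and the base 2340 probe gave −1.41 without scramble array 1 (limma, adjusted p = 0.0230). Each of these fits sets the mimic arrays against 1 scramble array, with the spread of the mimic arrays alone, so neither Mef2d probe is called from them.

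**Figure D3:**
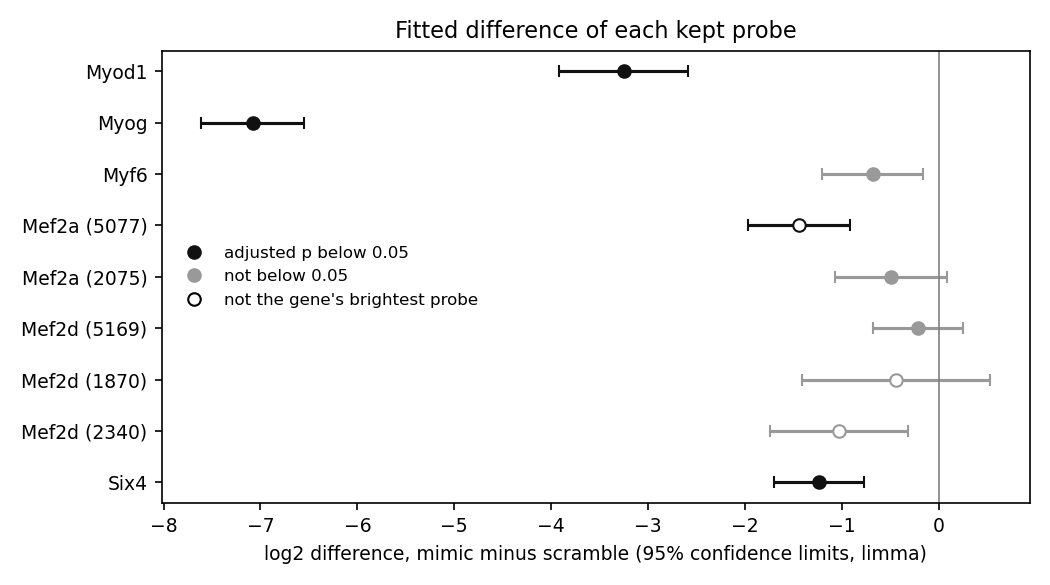
Fitted difference, mimic minus scramble, in log2 units (horizontal axis) of the 9 kept probes (vertical axis), with 95% confidence limits from limma; black marks an adjusted p below 0.05 and open points are probes that are not the brightest of their gene. Myog lies at −7.08, Myod1 at −3.25, the Mef2a probe at base 5077 at −1.44 and Six4 at −1.23. All 9 points, which are probes of 6 genes, lie below 0. The limits of the Mef2a probe at base 2075 and of the Mef2d probes at base 5169 and base 1870 include 0.

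Six4, a homeobox gene whose product binds MEF3 sites, was lower with the mimic. Its probe, base 5512, lies at chr12:74201246-74201305 on the minus strand (mm9). The mimic arrays gave 1.44, 1.74 and 1.44, and the scramble arrays 2.75 and 2.80. The scramble arrays were nearly equal and well above all 3 mimic arrays. The means were 1.54 ± 0.17 (SD, n = 3) and 2.77 ± 0.04 (SD, n = 2). The difference of −1.23 ± 0.20 (SE; 95% limits −1.70 to −0.77), a 2.35-fold fall, passed the test (limma, adjusted p = 0.0104).

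For Six4 the size was steady and the call was not. The difference was −1.21 against scramble array 1 alone and −1.26 against scramble array 2 alone, −1.15 and −1.31 within the 2 scan days, and −1.20 with a block for the slide row. The call was lost in 4 of 22 alternative settings. These were scaling to the array median (−1.15, adjusted p = 0.149), no filter (adjusted p = 0.221), and the fits without mimic array 1 (−1.18, adjusted p = 0.0628) or mimic array 3 (−1.18, adjusted p = 0.0599), all by limma.

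Pax7, the marker of muscle stem cells, was not well above background on any of the 10 scans. Its probe, base 3847, lies at chr4:139294364-139294423 on the minus strand (mm9). Signals were −3.24, −2.22 and −2.56 on the mimic arrays and −1.67 and −1.40 on the scramble arrays. These values carry no fold, because neither group was well above background. Without the filter the difference of −1.14 did not pass the test (limma, adjusted p = 0.447).

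No kept partner of the helix-loop-helix factors passed the test, beside 3.34% lower and 4.90% higher of all tested genes, and a p that misses the threshold does not show that a gene did not change. Of 5 listed E proteins and other helix-loop-helix partners, 4 passed the filter and 0 passed the test in either direction (limma; also 0 at an unadjusted p below 0.05), with a median difference of −0.17 beside 0.09 for all genes. Bhlhe41, which encodes a repressor known to restrain MyoD, gave −0.80 ± 0.36 (SE; 95% limits −1.63 to 0.03; adjusted p = 0.217). Tcf3 and Tcf4, whose E proteins form dimers with MyoD and myogenin, gave −0.21 (adjusted p = 0.581) and −0.13 (adjusted p = 0.721). Each turned to 0.03 when a scramble array was left out, array 2 for Tcf3 and array 1 for Tcf4.

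Of 8 genes of the sine oculis, EYA and DACH families reported here, 4 passed the filter and 0 passed the test (limma; 1 was lower and 0 higher at an unadjusted p below 0.05), with a median difference of 0.02. Eya4 and Eya3, which encode coactivators that work with Six4 and similar factors, gave −0.82 ± 0.21 (SE; limma, adjusted p = 0.0560) and 0.48 ± 0.23 (SE; adjusted p = 0.248). Six5, a homeobox gene of the same family as Six4, gave 0.22 (adjusted p = 0.514).

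The list of MEF2 regulators holds kinases, a phosphatase and deacetylases that act on MEF2 proteins, and also the family member Mef2b, which did not pass the filter. Of 14 listed, 11 passed the filter, 0 were lower and 0 higher (limma; 1 and 1 at an unadjusted p below 0.05), with a median difference of 0.20. Camk2d, a calcium-dependent kinase that relieves MEF2 of class II deacetylases, gave 0.79 (limma, adjusted p = 0.0669). Mapk12, a p38 kinase rich in muscle, gave −0.56 (adjusted p = 0.123), and Ppp3ca, the catalytic subunit of calcineurin, 0.50 (adjusted p = 0.248).

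Of 12 listed cofactors and chromatin enzymes of the myogenic factors, 10 passed the filter, 1 was lower and 0 were higher (limma; 2 and 0 at an unadjusted p below 0.05). Of all tested genes, 3.34% were lower and 4.90% higher, and 9.64% and 14.9% at the unadjusted p. The median difference of the list was −0.18. The listed gene that was lower was Smarcd3, which encodes BAF60C, the chromatin remodelling subunit that MyoD works with at muscle genes. It gave −1.59 ± 0.20 (SE; limma, adjusted p = 0.00336), a 3.01-fold fall, and lost the call only without a filter on dim probes (adjusted p = 0.0739). Prmt5, an arginine methyltransferase, gave −0.72 (adjusted p = 0.0711), and Ezh2, the Polycomb methyltransferase that silences muscle genes in proliferating myoblasts, gave 0.60 (adjusted p = 0.240).

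Of 7 upstream factors and myogenic surface receptors reported here, 3 passed the filter and 0 passed the test (limma; 1 was lower and 0 higher at an unadjusted p below 0.05), with a median difference of 0.08. Cdon, a surface receptor that promotes myogenesis, gave −0.92 (adjusted p = 0.0769), and its relative Neo1 gave 0.43 (adjusted p = 0.428). Lbx1, a homeobox gene of migrating muscle precursors, gave 0.08 ± 0.31 (SE; adjusted p = 0.900), and its sign turned under 4 of 21 alternatives, among them the scaling over probes above background on all scans (−0.05).

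Several list genes that did not pass lay near the threshold, and their calls changed with the processing. Of 22 alternatives, Eya4 passed in 9, Cdon in 8, Camk2d in 7 and Prmt5 in 5. These counts include fits in which both scans of an array enter as observations, and fits with 1 scramble array. Outside such fits, Prmt5 passed only with normexp correction (limma, adjusted p = 0.0452). With the scan date as a block and the array as a random block, all 4 passed, with adjusted p of 0.0180, 0.0382, 0.0168 and 0.0262 in that order (limma). With quantile normalization Eya4 (0.0467) and Cdon (0.0375) passed. Eya3 and Ppp3ca passed in 2 of 22, with the 10 scans as separate samples and without scramble array 1. Mapk12 passed in 1, with the 10 scans as separate samples, and Ezh2 in 1, without scramble array 1. Without scramble array 1, when the scramble group is 1 array, adjusted p was 0.0166 for Camk2d, 0.0379 for Ppp3ca, 0.0210 for Eya4, 0.0482 for Eya3, 0.0233 for Prmt5 and 0.0438 for Ezh2, and without scramble array 2 it was 0.0416 for Cdon.

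Most textbook target genes of these factors were lower with the mimic. Of 23 listed, 20 passed the filter, 18 were lower and 0 higher, beside 3.34% lower and 4.90% higher of all tested genes. The median difference of the 20 was −2.67, beside 0.09 for all tested genes and −1.50 for all genes called lower. Chrng, among the 18, passed the filter through the scramble group alone, with 0 of 6 mimic and 4 of 4 scramble scans well above background. Actc1, the sarcomeric actin of early muscle, gave −5.37 ± 0.21 (SE; limma, adjusted p = 7.11e-05), a 41.5-fold fall. Tnnt2, a troponin T of embryonic muscle and heart, gave −4.01 ± 0.19 (SE; adjusted p = 7.69e-05), a 16.1-fold fall, and Tnni1, the slow troponin I, gave −5.25 ± 0.28 (SE; adjusted p = 0.000109) with a signal well above background on 3 of 6 mimic scans.

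The targets that did not pass were Chrna1, an acetylcholine receptor subunit, at −0.71 (limma, adjusted p = 0.0615), and Ckm, the muscle creatine kinase, at −0.59 (adjusted p = 0.201). Cav3, Cdkn1c and Chrne did not pass the filter. Across the alternative settings between 14 and 19 of the 23 targets were lower. The listed genes were chosen as known muscle genes after earlier results on these samples were known. Their count and their median are therefore no independent evidence of the direction or size of a change.

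**Figure D4:**
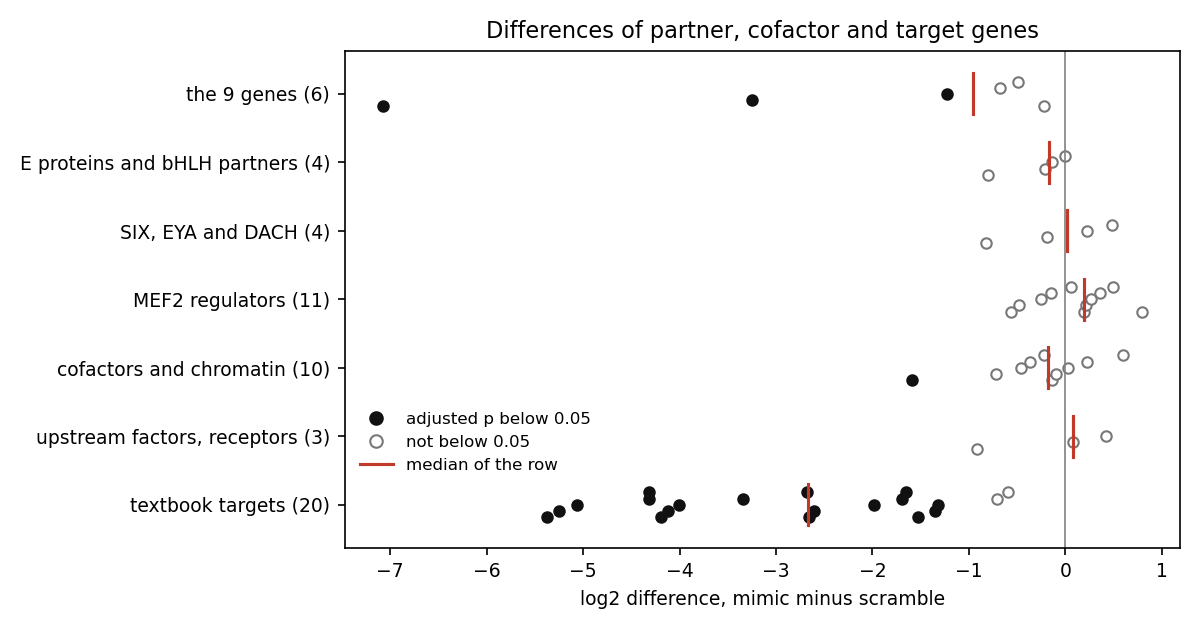
Fitted differences, mimic minus scramble, in log2 units (horizontal axis) of the genes of each list that passed the filter (vertical axis, number in brackets), with 1 point per gene read from its brightest probe; filled points have an adjusted p below 0.05 and red bars are medians. The 20 target genes have a median of −2.67 with 18 filled points, while the partner and regulator lists have medians between −0.18 and 0.20 with at most 1 filled point each.

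The labelled cell type was checked on 6 myoblast markers, 4 of which are also in the target list or among the 9 genes. All 6 were well above background on some scan, and 5 passed the filter. Myod1, Cdh15 (−1.98), which encodes M-cadherin, and Des (−1.32), which encodes desmin, were lower with the mimic, while Itga7 gave −0.75 (limma, adjusted p = 0.0513) and Ncam1 0.25 (adjusted p = 0.567). Their summed signal, in multiples of the 75th percentile of the scan, was 187 to 191 on the mimic arrays and 336 to 382 on the scramble arrays. Brighter probes weigh more in such a sum, here above all that of Itga7, with mean log2 signals of 6.98 (mimic) and 7.72 (scramble). This sum includes Myod1 itself, and its part in the differences of the 9 genes was not tested.

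Of 5 leukocyte markers, Itgam and Csf1r were above background and Ptprc, Lyz2 and Tyrobp were not on any scan. Their summed signal was 16.8 to 19.3 with the mimic and 16.2 to 16.5 with the scramble. Of 4 adipocyte and 3 endothelial markers, 0 were above background on any scan, and 2 of 3 neuronal markers were, with sums of 13.8 to 16.6 and 12.4 to 13.6. None of the 4 kept leukocyte and neuronal markers passed the test (limma; 0 at an unadjusted p below 0.05).

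By the root mean square difference over the 5 arrays, after centring each gene on its mean, the genes whose pattern came nearest to that of Myog among 10467 were Myom3 (0.54), Actc1 (0.85), Casq2 (0.86), Lmod3 (0.91) and Tnni1 (0.94). The values were not scaled, so the size of the fall weighs heavily in this measure. The differences ran from −6.15 for Myom3 to −5.25 for Tnni1, in the same order as the ranking, beside −7.08 for Myog. All 5 are genes of the sarcomere or of its calcium store, and the share of such genes among all genes with large falls was not taken. No mimic scan put Myom3 or Casq2 well above background, and on the main scale they were at least 39.98-fold and 12.97-fold lower. For Lmod3, 3 of 6 mimic scans were well above background. These sizes depend on the background correction: with normexp the differences were −4.22 for Myom3, −3.09 for Casq2, −4.20 for Lmod3 and −3.92 for Tnni1, which for Myom3 and Casq2 is less than those bounds, and −5.10 for Actc1. The place of Myom3 and Casq2 in this order rests in part on mimic signals near background.

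The genes nearest to Myod1 were Tmem201 (0.12), Piezo2 (0.12), Mymk (0.17), Apoe (0.21) and Lbp (0.22). Mymk, which encodes the fusion protein myomaker, fell 10.1-fold and was well above background on all 6 mimic scans. For the other 4 no mimic scan was well above background, so they passed the filter through the scramble group and their likeness rests on mimic signals near background. On the main scale they were lower by at least 3.73-fold for Tmem201, 4.05-fold for Piezo2, 6.63-fold for Apoe and 8.05-fold for Lbp. With normexp the differences were −1.41 for Tmem201, −1.31 for Piezo2, −1.74 for Apoe and −2.06 for Lbp, smaller than those bounds and than the −3.03 of Myod1, whereas Mymk gave −3.07. For Myod1 too, the size of the fall enters the measure. The likeness is over 5 arrays and is a description, given with no test.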

How the data were processed

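The authors deposited 1 scanner file per sample with spot intensity on a linear scale, made with Agilent Feature Extraction, version 12.0.0.7 in the file headers and 10.7.3.1 in the submitters' processing notes. RNA (150 ng) was labelled with Cy3 for a 1-colour array, per the labels' protocols, and the headers name mm9. The deposited series matrix holds intensity too. It was found to be linear, with column medians from 175.5 to 353.8, to list 16199 probes on all samples and to follow each scan at r of at least 0.999. How arrays were scaled to each other is not stated in the sources used here. The flags for background, outliers and saturation are the authors' deposited values, in 0 or 1 per spot.

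Here the processed signal was put on the log2 scale, the 75th percentile of the scan's non-control probes was subtracted, spots with outlier flags were left out, and copies of a probe and both scans of an array position were averaged. A probe counted as above background on a scan when at least 0.5 of its copies were, and was kept with 4 such scans. This left 17454 of 55681 probes. The brightest kept probe stood for its gene. The main test was limma 3.58.1 (lmFit, eBayes; R 4.3.3), with 3 residual and 4.44 prior degrees of freedom. P-values were adjusted by Benjamini-Hochberg over the kept probes, and a threshold of 0.05 called 633 probes lower and 813 higher, while 4317 had an unadjusted p under 0.05. A bound sets the brighter group against the higher of the dim probe's signal and the lowest signal well above background. On simulated data for this comparison (17454 probes and 200 changed probes in each of 20 runs) it recovered 96.9% of probes with an 8-fold change, 81.7% at 4-fold, 6.5% at 2-fold and 0.2% at 1.5-fold, and 5.27% of its calls were false.

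Names of genes follow RefSeq tables of GRCm38.p6 (28026 probes by accession, 3418 by symbol, 295 by synonym), and 23942 kept the name in the file. Exon and UTR annotation of mm9 was not used here. The 9 genes and all lists were chosen with earlier results of these data known. Of the listed genes, 2 are not reported here and enter no list count. The genes named are the 9 with all their probes, the 3 genes with the lowest p in each list, and the 5 nearest in pattern to Myog and to Myod1. Target genes that did not pass the test or the filter, the target Chrng, and cell type markers were named besides, after their values were seen. The alternatives were other scalings, background corrections and filters, outlier flags kept, other ways of joining probes, single scan days, day, slide row and replicate number as blocks, the series matrix, and each array left out. The number of arrays limits the precision.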

Additional observations from a re-analysis of the deposited data

How the results depend on the processing

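Of the 9 genes, 2 to 4 were lower with the mimic and 0 were higher under every alternative run. Myod1 passed the test in all 22 settings (−3.68 to −2.82) and Myog in all 21 that could give a value (−7.28 to −5.98). Myf6 passed only with the 10 scans as separate samples, which counts rescans as replicates (adjusted p = 0.0140, limma). Read per gene, Mef2a passed only with the mean of its probes. Its dim probe at base 2899 passed by itself with no filter (adjusted p = 0.0465, limma). The 1446 probes called over the whole array became 895 with scaling to the array median, 460 with no filter, 868 with a slide row block, 5094 with the 10 scans as separate samples, and 618 (mimic array 1), 731 (mimic array 2), 657 (mimic array 3) and 4236 (scramble array 1) when that array was left out; the cause was not tested. With the replicate block over 10 scans the count was 2671 and 3 of the 9 genes were lower, as without it. The replicate numbers were not taken as pairs, since deviations of same-numbered scans correlated at 0.14, −0.05, −0.23 and 0.10 and no scramble scan correlated best with its own number. Leaving out a scramble array turned the Mef2d probe at base 1870 to 0.30, Tcf3 to 0.0282 and Tcf4 to 0.0282. Lbx1, at 0.08, turned to −0.053 with the percentile over probes above background on all scans, −0.017 on scan day 1 only, −0.040 with the replicate block and −0.23 without mimic array 2. A filter that asked for all scans of at least 1 group, and the target counts, the values of list genes and those of the further Mef2a and Mef2d probes under the alternatives were added after seeing the data. Signal over background limits Myf5, Mef2c and Pax7, which gave no value in most settings.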
